A study of Mus musculus with 18 samples.

Results

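Sorted CD4-negative, CD8-negative thymus cells (double-negative or DN cells) of mice given an antibody against DLL4 were compared with unsorted thymocytes of mice given the same antibody, to ask what the fraction lacking both coreceptors holds when the ligand is blocked. The comparison rests on 6 of the 18 arrays of the series, chosen by their labels: 3 of DN anti-DLL4 cells and 3 of anti-DLL4 thymocytes. All mice were C57BL/6, and thymi were taken 2 weeks after injection of anti-DLL4 or of an isotype control antibody. The isotype control samples, 3 of DN cells and 4 of thymocytes, serve as a second setting for the same contrast. The study's description speaks of 4 animals per antibody and of 3 control thymocyte samples where the labels list 4. Samples are not tied to animals, so p-values measure the spread between samples, which may in part be technical. That spread, and with it each SE, was estimated jointly over all 18 arrays, including groups not compared here. Age and sex were not given in the sources used here. DN cells were gated on CD4 and CD8 alone, per the labels, with no other lineage marker named, and total thymocytes contain the DN cells too.

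DLL4 is the Notch ligand that thymic epithelial cells present to incoming progenitors, and Notch signalling through it commits those progenitors to the T lineage. Without that signal, progenitors in the mouse thymus are known to take other fates, B cells and dendritic cells among them. In a normal thymus most cells are double-positive thymocytes carrying both CD4 and CD8. The DN fraction contains the earliest T-lineage stages and also any cell of another lineage that lacks both coreceptors.

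Each array held 43537 non-control spots for 43426 probes of 25577 genes. A gene's level is log2 of the processed signal minus the 75th percentile of its array, so 0 marks that percentile. A gene with several probes is given by its brightest. The 75th percentile lay between 741 and 1077 on DN anti-DLL4 arrays and between 443 and 4295 on anti-DLL4 thymocyte arrays, where replicate 3 was the dim one. Spots well above background made up 63.7% to 67.2% of non-control spots in DN cells and 69.9% to 75.8% in thymocytes. The median SD of a gene over 3 arrays was 0.53 log2 units in DN cells and 0.90 in thymocytes. Across genes, which are not independent replicates, arrays of DN cells correlated with each other at 0.92 to 0.95, thymocyte arrays at 0.87 to 0.94, and DN with thymocyte arrays at 0.87 to 0.93.

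Genes were tested if detected, meaning well above background, on 2 or more of the 6 arrays. Of the 20169 that were, 61 passed limma's test at a Benjamini-Hochberg adjusted p under 0.05, which is 0.302% of those tested. Only 7 of them (0.0347%) were higher in DN cells and 54 (0.268%) were lower. At an unadjusted p under 0.05 there were 1518 genes. The values of the 61 genes did not overlap between the 3 DN and 3 thymocyte arrays. Over all genes tested such separation occurred in 1494 (7.41%) toward higher and 1321 (6.55%) toward lower values in DN cells. Differences are DN anti-DLL4 minus thymocytes anti-DLL4 throughout, and their median over all genes tested was 0.09. In the whole-thymus arrays of this bulk comparison, fewer cells of a type and less RNA per cell cannot be told apart. None of the 29 called genes named by the fixed rule kept an adjusted p under 0.05 when each of the 6 arrays in turn was left out. Without thymocyte replicates 1, 2 and 3 the total calls were 51, 11 and 9, and without DN replicates 1, 2 and 3 they were 17, 32 and 38.

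**Figure D1:**
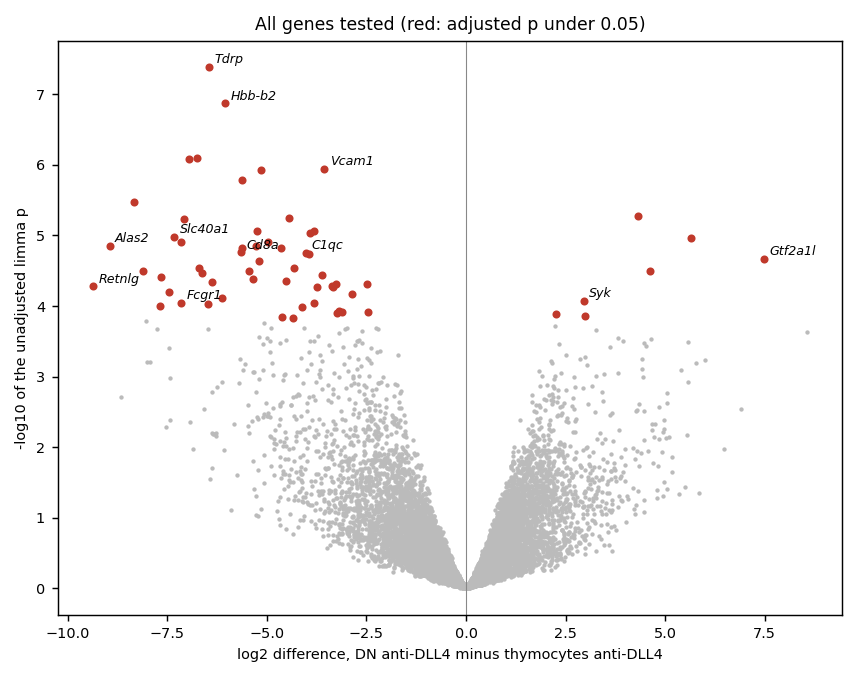
Log2 difference between DN anti-DLL4 cells and anti-DLL4 thymocytes (horizontal axis) against -log10 of the unadjusted limma p (vertical axis) for the 20169 genes tested, 1 point a gene. Red points are the 61 genes with an adjusted p under 0.05, of which 54 lie left of 0 and 7 right of it.

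Genes of the double-positive stage were lower in DN cells. Of the 21 list members tested, 18 had a difference below 0, 13 had non-overlapping lower values, 5 passed the test as lower and none as higher, with a list median of -1.51. These counts include Cd4, Cd8a and Cd8b1, whose proteins the DN cells were sorted to lack. Lower values of those genes follow from the gate and are no separate finding about the fraction. The gate also removes whole cells that carry CD4 or CD8. Lower values of other genes of such cells, here and in the T-cell lists below, are thus no independent finding either. The mean level of the list was 2.04, 2.06 and 1.67 on the DN arrays, against 3.75, 3.67 and 3.65 on the thymocyte arrays. Every DN array lay below every thymocyte array. Cd8a, the alpha chain of the CD8 coreceptor, had levels of 1.40, -1.46 and 0.98 in DN anti-DLL4 cells and 6.14, 6.19 and 5.56 in anti-DLL4 thymocytes. It fell by 5.66 ± 0.93 log2 units (SE, n = 3 each, limma adjusted p = 0.0147), and its 3 probes (differences of -5.83 to -5.13) ran the same way. The probe used lies at chr6:71306845-71306904 of the mm8 build. Cd8a was still well above background on all 3 DN arrays.

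Cd8b1, the CD8 beta chain, had levels of 3.78, 4.09 and 3.64 in DN cells against 7.0, 7.46 and 9.25 in thymocytes, without overlap. Its difference of -4.07 ± 0.85 missed the threshold (limma adjusted p = 0.0601), and a second probe of the gene differed by 0.73 in the other direction. Cd4 was read by 1 probe, which had levels of -4.28, -3.53 and -3.89 in DN cells and -3.32, -3.25 and 0.72 in thymocytes (limma adjusted p = 0.644). In isotype control mice the same probe lay between -3.29 and -0.75 in DN cells and between -3.34 and -2.43 in thymocytes. The treated groups were separated narrowly and the isotype groups overlapped, so this probe gives no clear check of the gate on CD4.

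Themis, a regulator of T-cell receptor signalling during selection, fell by 3.82 ± 0.73 (limma adjusted p = 0.0365). Plxnd1, a semaphorin receptor of double-positive cells, fell by 2.45 ± 0.48 (limma adjusted p = 0.0443). Ccr9, the receptor for the thymic chemokine CCL25, had levels of 0.71, 2.47 and -1.12 in DN cells and 4.01, 4.51 and 6.54 in thymocytes, and fell by 4.33 ± 0.87 (limma adjusted p = 0.0489). Of the recombinase genes, Rag1 differed by -1.71 without overlap (adjusted p = 0.636) and Rag2 by 0.78 with overlapping values.

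**Figure D2:**
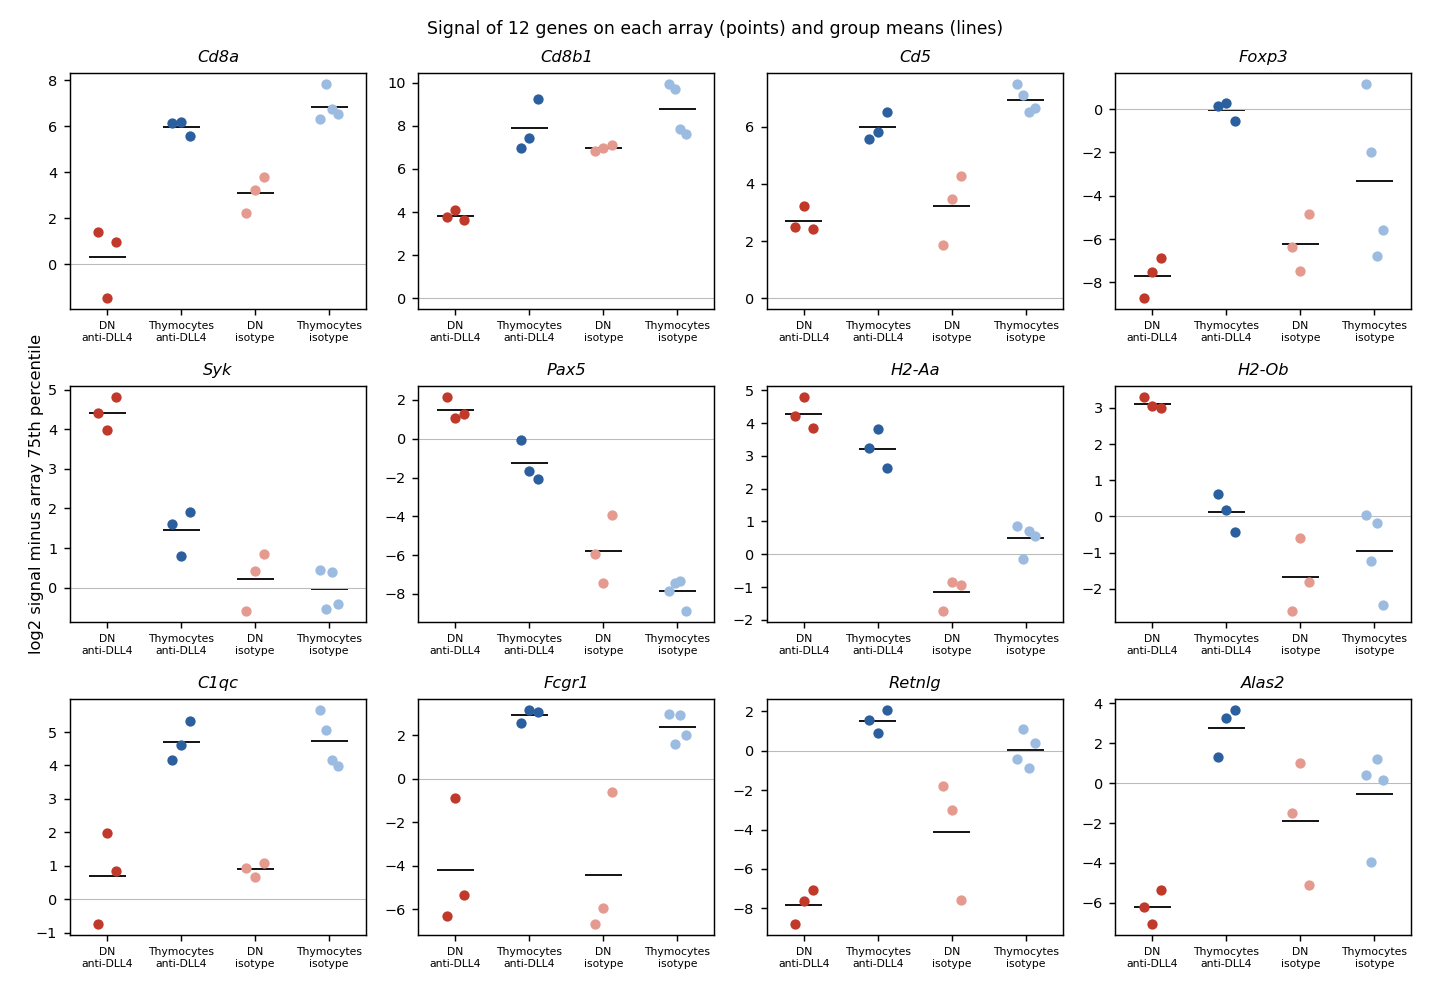
Level of 12 genes (log2 signal minus the array's 75th percentile) on each array, with DN anti-DLL4, thymocyte anti-DLL4, DN isotype and thymocyte isotype groups from left to right, points for arrays and lines for group means. Cd8a lies between -1.46 and 1.40 in DN anti-DLL4 cells and between 5.56 and 6.19 in anti-DLL4 thymocytes, while Pax5 lies between 1.05 and 2.16 and between -2.06 and -0.07.

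Components of the T-cell receptor complex and its signalling were also lower. Of 18 members 17 had a difference below 0 and 12 had non-overlapping lower values, with a median of -1.36, but 1 passed the test. That gene was Cd5, a negative regulator of receptor signalling, with levels of 2.50, 3.22 and 2.41 in DN cells and 5.59, 5.84 and 6.52 in thymocytes, a fall of 3.27 ± 0.59 (limma adjusted p = 0.0244). The list's mean level was 2.64, 3.32 and 2.34 in DN cells and 4.08, 4.39 and 4.20 in thymocytes. Cd3e, a CD3 chain, differed by only -0.65 ± 0.60 (adjusted p = 0.979) and its arrays overlapped.

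The early T-lineage list (DN2 to DN3 stages) showed no common direction, with 8 of 17 members above 0, none past the test and a median of -0.62. Hes1, a direct Notch target, had levels of 2.45, 3.16 and 2.12 in DN cells and 0.72, 0.62 and -0.50 in thymocytes. That difference of 2.30 ± 0.67 did not pass (limma adjusted p = 0.238), and its other probes differed by 1.23 and 0.21. Il2ra, the CD25 chain of DN2 and DN3 cells, was the other member with non-overlapping higher values (0.71, 1.08 and 0.63 in DN cells against -0.31, 0.06 and -2.34 in thymocytes, adjusted p = 0.566). The T-lineage factors Tcf7 and Gata3 differed by -1.58 (adjusted p = 0.453) and -2.35 (adjusted p = 0.474). Gata3 ranged widely among DN arrays, at 2.76, 5.21 and 1.61, and overlapped the thymocyte levels of 4.68, 5.55 and 6.41.

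Among mature single-positive and egress genes, 5 of 15 were above 0, with a median of -0.63. Nsg2 was the called member, at 2.38, 3.61 and 2.31 in DN cells and 5.79, 5.84 and 6.72 in thymocytes, a fall of 3.35 ± 0.61 (limma adjusted p = 0.0248). S1pr1, the receptor that guides mature thymocytes out, differed by -0.95 ± 0.43 (adjusted p = 0.628), and Ccr7, a homing receptor, by -0.44 ± 0.49 (adjusted p = 0.999).

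Regulatory T-cell genes gave 8 of 9 tested members below 0, 6 of them without overlap, and 2 called lower, with a median of -1.46. Foxp3, the lineage factor of these cells, was not well above background on any DN anti-DLL4 array (-8.73, -7.53 and -6.87) and had levels of 0.13, 0.30 and -0.54 in thymocytes. Where a group lies below background on all its arrays, only a bound is measured, set by the lowest signal well above background on those arrays. Foxp3 was at least 86.1-fold lower in DN cells (limma adjusted p = 0.0389). Tnfrsf4, which encodes the costimulatory receptor OX40, had levels of 0.80, 0.11 and 1.65 in DN cells and 3.83, 4.58 and 5.98 in thymocytes, a fall of 3.94 ± 0.65 (limma adjusted p = 0.0149). In the list of gamma-delta and innate-like T-cell genes, 8 of 12 were tested, 6 were above 0, 1 was called lower and the median was 0.34. The non-overlapping higher member was Blk, a kinase that the B-cell list holds too.

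B-cell genes had the highest median of the 23 lists. All 25 members had a difference above 0 (55.4% of all genes tested did) and 22 had non-overlapping higher values, with a median of 2.04. The list's mean was 4.50, 4.11 and 4.42 on DN arrays against 2.39, 1.77 and 2.80 on thymocyte arrays. Of these members 1 passed the test.

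Pax5, which holds cells to a B-lineage fate, had levels of 2.16, 1.05 and 1.27 in DN cells and -0.07, -1.64 and -2.06 in thymocytes. The groups did not overlap, and the difference of 2.75 ± 0.82 missed the threshold (limma adjusted p = 0.248). A second Pax5 probe, well above background on 3 of the 6 arrays, differed by 0.02. Ebf1, a factor upstream of Pax5, had levels of 1.60, 1.33 and 1.44 in DN cells and -1.01, -1.93 and 0.11 in thymocytes (adjusted p = 0.197). Cd79a, a signalling chain of the B-cell receptor, differed by 2.07 ± 0.72 (adjusted p = 0.408), and Ms4a1, the gene of CD20, by 1.80 ± 0.69 (adjusted p = 0.488).

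Syk, a tyrosine kinase downstream of the B-cell receptor that other blood cells use too, was among the 7 genes called higher. It had levels of 4.40, 3.99 and 4.82 in DN cells and 1.62, 0.81 and 1.91 in thymocytes, a rise of 2.96 ± 0.56 (limma adjusted p = 0.0352).

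Precursor B-cell genes were spread widely within each group. Of 12 members 9 were above 0, with a median of 1.94, none passed the test, and 1 had non-overlapping higher values. The list's mean was 4.10, 2.51 and 3.99 in DN cells and 2.61, 0.74 and 3.24 in thymocytes. Replicate 2 was the lowest array in each group. Igll1, part of the surrogate light chain of the pre-B-cell receptor, had levels of 6.65, 3.81 and 6.64 in DN cells and 3.76, -1.57 and 5.61 in thymocytes (difference 3.1 ± 1.49, adjusted p = 0.682). Bst1, a surface enzyme of B-cell precursors and myeloid cells, was the non-overlapping member, at 4.21, 2.69 and 4.69 in DN cells and 2.49, 0.05 and 0.99 in thymocytes (adjusted p = 0.528). Erg, a blood progenitor factor, differed by 3.98 ± 1.51 with overlapping values (adjusted p = 0.477).

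All 12 genes of MHC class II presentation had a difference above 0, 8 without overlap, with a median of 1.00, and none passed the test. These genes encode the class II chains and the proteins that load them with peptide, and B cells, dendritic cells and thymic epithelium express them. H2-Aa, the I-A alpha chain, had levels of 4.22, 4.80 and 3.84 in DN cells and 3.24, 3.80 and 2.62 in thymocytes. The groups separated narrowly, and the difference of 1.07 ± 0.49 did not pass (limma adjusted p = 0.644), with its second probe at 1.09. Cd74, the invariant chain, was tight in DN cells at 8.65, 8.67 and 8.65 and had levels of 6.58, 6.71 and 7.55 in thymocytes (adjusted p = 0.445).

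H2-Ob, the beta chain of H2-O, which modulates peptide loading in B cells, came nearest to the threshold in this list. Its levels were 3.30, 3.05 and 3.00 in DN cells and 0.62, 0.17 and -0.42 in thymocytes, a difference of 2.99 ± 0.69 (limma adjusted p = 0.094). H2-Eb2 differed by 3.81 ± 0.93 (adjusted p = 0.123) and H2-DMb2, a chain of the loading catalyst H2-DM, by 2.08 ± 0.55 (adjusted p = 0.17). H2-Eb2 was dim, at -5.27, -0.84 and -2.90 in DN cells and -7.72, -6.44 and -6.29 in thymocytes. Only 2 of the 3 thymocyte arrays had it well above background, so the size of its difference is uncertain. The B-cell list moved in the same direction on the same arrays, as its means above show, and its part in the class II differences was not tested.

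Class II promoters are known to share an X box and a Y box, bound by the RFX and NF-Y complexes, to which the coactivator CIITA is recruited. Both motifs were therefore searched on both strands of the bases before the start in RefSeq promoters (GRCm38.p6), which were found for 9 of the 12 genes, with 10 promoters in all. The Y box letters CTGATTGG stood in 4 of the 10, against 3.83% of 32851 promoters, and the X1 box in 2 of the 10, against 0.965%. The X1 and Y motifs did not overlap. The 4 promoters with the Y box are shown over 130 bases before the start, with matched letters in capitals.
H2-Aa, chr17:34287824-34287953, minus strand: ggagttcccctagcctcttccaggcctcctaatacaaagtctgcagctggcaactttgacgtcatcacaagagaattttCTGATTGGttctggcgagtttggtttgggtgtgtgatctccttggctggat
H2-Eb1, chr17:34305737-34305866, plus strand: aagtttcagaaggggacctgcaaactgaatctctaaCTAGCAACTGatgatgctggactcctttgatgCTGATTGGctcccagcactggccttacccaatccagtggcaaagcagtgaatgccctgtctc
H2-Eb2, chr17:34325545-34325674, plus strand: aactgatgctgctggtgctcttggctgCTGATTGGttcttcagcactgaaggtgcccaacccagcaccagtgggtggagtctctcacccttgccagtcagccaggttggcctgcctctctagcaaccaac
H2-Oa, chr17:34092249-34092378, plus strand: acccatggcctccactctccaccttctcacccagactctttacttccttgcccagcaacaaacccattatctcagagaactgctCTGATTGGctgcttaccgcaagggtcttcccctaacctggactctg
Counted from the annotated start, the Y box began at -51, -62, -103 and -46 in these genes, in the order shown, and the X1 box of H2-Eb1 at -94. These 4 genes differed by 1.07, 1.16, 3.81 (H2-Eb2, which was dim in thymocytes) and 0.86. H2-Ob, whose window held neither motif, differed by 2.99.

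Conventional dendritic-cell genes were split. Of 19 tested, 6 were above 0, 3 were higher and 3 lower without overlap, none passed the test, and the median was -0.45. Irf4, a factor of dendritic and B cells, had levels of 6.15, 5.51 and 6.37 in DN cells and 3.83, 3.77 and 3.78 in thymocytes (difference 2.22 ± 0.57, limma adjusted p = 0.151). Cd83, a maturation marker of dendritic cells also found on B cells, differed by 1.59 ± 0.55 (adjusted p = 0.405) and Irf8, a factor of both lineages, by 0.75 ± 0.47 (adjusted p = 0.861). Itgax, the gene of CD11c, ran the other way at 1.53, 2.84 and 2.33 in DN cells and 3.87, 3.59 and 4.30 in thymocytes (difference -1.69 ± 0.92, adjusted p = 0.77).

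Of 16 plasmacytoid dendritic-cell genes tested, 6 were above 0 and 2 passed the test as lower, with a median of -1.52. Of the called members, Ccr9 is the chemokine receptor shared with the double-positive list, and Klk1 encodes tissue kallikrein, a secreted protease. How specific Klk1 is to these cells was not tested. Klk1 had levels of -1.68, -2.42 and 0.02 in DN cells and 4.29, 3.65 and 3.54 in thymocytes, a fall of 5.19 ± 0.87 (limma adjusted p = 0.0174). Siglech, a defining surface receptor, varied from -7.89 to -2.78 in DN cells and from -2.37 to 0.78 in thymocytes (difference -4.58 ± 1.51, adjusted p = 0.349). Tcf4, the lineage factor of plasmacytoid cells that B cells also express, differed by 1.81 ± 0.68 in the other direction (adjusted p = 0.475).

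Natural killer and innate lymphoid genes had 16 of 18 members below 0, 10 without overlap, a median of -0.89 and none past the test. Klra8, an activating receptor, had levels of 0.47, 0.87 and 0.37 in DN cells and 3.15, 2.56 and 1.82 in thymocytes (difference -1.94 ± 0.73, adjusted p = 0.465). Klre1, another receptor of the family, differed by -1.72 (adjusted p = 0.57) and Prf1, the gene of perforin, by -1.80 (adjusted p = 0.685). The list's mean was 2.35, 2.87 and 2.14 in DN cells against 3.46, 3.33 and 3.35 in thymocytes.

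**Figure D3:**
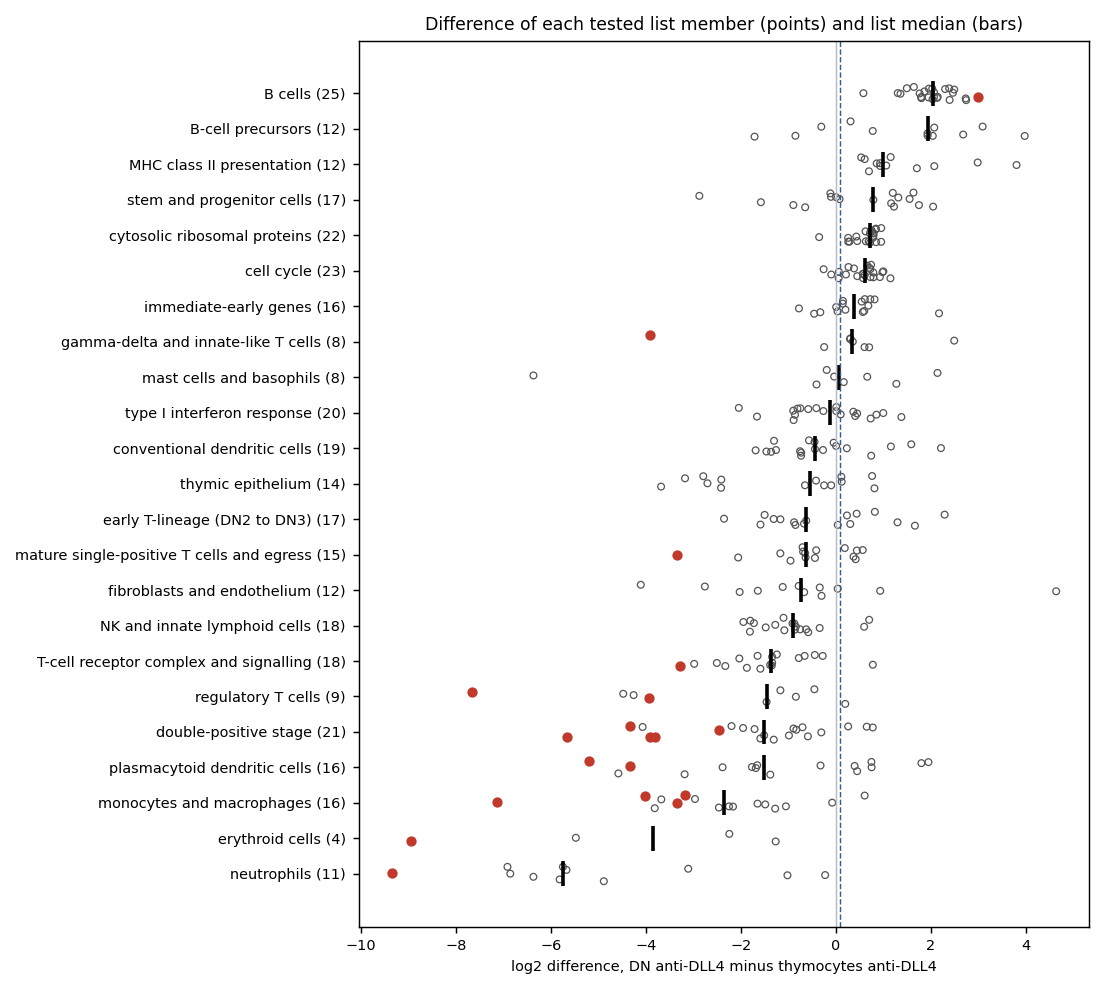
Log2 difference (DN anti-DLL4 minus thymocytes anti-DLL4) of each tested member of 23 gene lists, with the number tested in brackets, filled red where the adjusted p is under 0.05. Black bars are list medians, from -5.75 in neutrophil genes to 2.04 in B-cell genes, and the dashed line marks the median of 0.09 over all genes. Some members, several neutrophil genes among them, were not well above background on every array.

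Monocyte and macrophage genes were lower in DN cells. Of 16 tested, 15 were below 0, 13 without overlap, and 4 passed the test as lower, with a median of -2.35. The list's mean was -1.24, -0.35 and -0.80 in DN cells and 1.81, 1.65 and 1.63 in thymocytes. C1qc, C1qa and C1qb, the 3 chains of complement C1q made by tissue macrophages, all fell. C1qc had levels of -0.74, 1.97 and 0.83 in DN cells and 4.17, 4.61 and 5.33 in thymocytes, a fall of 4.02 ± 0.66 (limma adjusted p = 0.0147). C1qa fell by 3.34 ± 0.61 (limma adjusted p = 0.0248) and C1qb by 3.18 ± 0.63 (limma adjusted p = 0.0442). Fcgr1, the high-affinity IgG receptor, had levels of -6.32, -0.89 and -5.35 in DN cells and 2.58, 3.19 and 3.1 in thymocytes, a fall of 7.14 ± 1.37 (limma adjusted p = 0.0365). Csf1r, the growth factor receptor of macrophages, differed by -1.65 ± 0.87 and did not pass (adjusted p = 0.744). Cx3cr1 was the member above 0, at 0.61 with overlapping values.

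Slc40a1, which encodes the iron exporter ferroportin of macrophages that recycle red cells, was among the 10 largest falls. Its levels were -1.87, -5.71 and -5.04 in DN cells and 3.17, 3.17 and 2.99 in thymocytes, a fall of 7.32 ± 1.15 (limma adjusted p = 0.0135). Outside the lists, 3 further called genes with known roles in macrophages were picked after their values were seen. Timd4, a receptor for dying cells, fell by 6.38 but was well above background on 1 of the 3 DN arrays. Vcam1, an adhesion molecule, fell by 3.56, with its other probes between -3.83 and -0.55. Ms4a7, a membrane protein of macrophages, fell by 4.96, with its other probe at -5.10.

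Neutrophil genes had the lowest list median, -5.75, with all 11 tested members below 0, 7 without overlap and 1 past the test. That median is the value of Camp, which was well above background on 4 of the 6 arrays, as were Ngp and Lcn2. It is thus a fitted value that rests in part on signals below background. Retnlg, a resistin-like protein of neutrophils, was not well above background on any DN array (-8.79, -7.64 and -7.07) and had levels of 1.55, 0.92 and 2.09 in thymocytes. It was at least 254-fold lower in DN cells (limma adjusted p = 0.0248). S100a8, a subunit of calprotectin, was uneven in DN cells at 0.37, -8.69 and -3.62 and had levels of 3.65, 2.01 and 2.97 in thymocytes (adjusted p = 0.398). The list mean itself spread from -6.36 to -3.18 over DN arrays and from -0.91 to 0.77 over thymocyte arrays. These genes share a cell source, so the 11 are not independent.

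Erythroid genes were lower in DN cells as well. Of 8 list members 6 had a probe and 4 were tested. All 4 were below 0 without overlap, 1 was called, and the median was -3.86 (-1.75 over the 6 with a probe). Alas2, the first enzyme of haem synthesis in red-cell precursors, had levels of -6.20, -7.05 and -5.34 in DN cells and 1.31, 3.25 and 3.68 in thymocytes. It fell by 8.94 ± 1.44 (limma adjusted p = 0.0138), and only 1 of the 3 DN arrays had it well above background. Hba-a1, an alpha-globin gene, had levels of 2.83, 1.96 and 3.98 in DN cells and 7.16, 7.84 and 10.19 in thymocytes (difference -5.47 ± 1.67, adjusted p = 0.274).

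Adult beta-globin genes outside that list were called too. Hbb-bt had levels of 1.07, -1.86 and 2.49 in DN cells and 6.42, 7.77 and 8.76 in thymocytes, a fall of 7.08 ± 1.06 (limma adjusted p = 0.0109), with its 4 probes between -7.27 and -6.07. Hbb-b2, picked after its value was seen, fell by 6.05 ± 0.67 (limma adjusted p = 0.00134). The adult beta-globin genes are near copies of each other, so a probe of one may read the other. The GATA letters AGATAA, the core bound by the erythroid factor GATA1, stood in the promoters of 2 of the 4 erythroid genes found in the RefSeq table, against 9.99% of all promoters. These were Alas2 and Epb42, and Epb42 was not among the genes tested. The promoters of Hba-a1 and Klf1, which were tested, held no match. The Alas2 promoter carries the GATA letters on the minus strand, beginning at -86 from the start, and is shown with the letters of its plus strand in capitals.
Alas2, chrX:150547287-150547416 (GRCm38.p6), plus strand: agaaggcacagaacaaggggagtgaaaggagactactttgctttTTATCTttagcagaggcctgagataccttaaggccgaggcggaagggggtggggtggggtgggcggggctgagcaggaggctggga

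Thymic epithelial genes had 10 of 14 members below 0, 5 without overlap, a median of -0.53 and none past the test. Ccl25, the chemokine ligand of CCR9, had levels of 1.09, 0.72 and 1.05 in DN cells and 3.34, 3.13 and 4.50 in thymocytes (difference -2.70 ± 0.59, limma adjusted p = 0.0715). Krt18, a keratin, had levels of 2.04, 2.66 and 1.26 in DN cells and 4.20, 4.88 and 5.25 in thymocytes (adjusted p = 0.0739). Krt5, a medullary keratin, differed by -2.41 (adjusted p = 0.612), while Foxn1, the master factor of the epithelium, differed by only -0.09 with overlapping values.

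Stem and progenitor genes had 11 of 17 members above 0, 4 without overlap, a median of 0.79 and none past the test. Lyl1, a helix-loop-helix factor of blood progenitors, had levels of 5.88, 6.53 and 6.27 in DN cells and 3.91, 4.04 and 5.47 in thymocytes (difference 1.76 ± 0.61, adjusted p = 0.405). Lmo2 differed by 2.05 ± 0.66 (adjusted p = 0.313) and Spi1, the gene of PU.1, by 1.17 ± 0.52 (adjusted p = 0.624). Kit, the stem-cell factor receptor, was at 0.64, -0.26 and -0.21 in DN cells and 0.83, 0.30 and -0.64 in thymocytes. The Kit levels overlapped fully.

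Cell-cycle genes were above 0 in 21 of 23 members, with a median of 0.61, 2 of them without overlap and none past the test. Mcm5, a subunit of the replicative helicase, had levels of 3.83, 3.68 and 3.98 in DN cells and 2.67, 2.68 and 2.68 in thymocytes (difference 1.15 ± 0.51, adjusted p = 0.624). Pcna, the DNA polymerase clamp, overlapped, at 6.94, 5.74 and 7.04 in DN cells and 6.03, 6.24 and 4.49 in thymocytes. Ribosomal protein genes were above 0 in 21 of 22, with a median of 0.73, 4 without overlap and none called. That list's mean was 7.87, 8.13 and 8.06 in DN cells and 6.72, 7.22 and 8.23 in thymocytes. The dim thymocyte replicate 3 was thus above all 3 DN arrays, and within slide 4, which held that array and DN replicate 3, the median difference was -0.37 against 1.16 within slide 1. Over all genes those medians were -0.39 and 0.33.

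Slides are a technical unit of these arrays, and slides 1 and 4 each held a DN and a thymocyte array of treated mice. Within slide 1 and slide 4 the medians were -1.34 and -2.0 for double-positive genes, 2.22 and 1.43 for B-cell genes, and 1.14 and 0.86 for class II genes. They were -3.06 and -2.03 for macrophage genes and -3.28 and -6.51 for neutrophil genes. All of these kept their sign within both slides. Some other lists did not, such as the stem and progenitor genes with medians of 0.98 and -0.01. With the slide as a block in the limma fit, 1 gene was called higher and 9 lower, of which 9 in all had also been called without it, among them Fam89a, Gm4827, Hbb-bt and Slc40a1 of the genes named.

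Among called genes, several of the named ones belonged to no list. On the higher side were Gtf2a1l, a germ-cell form of a TFIIA subunit, Gm4827, Mybpc3, the cardiac myosin-binding protein, Cldn34c1, a claudin, and Colgalt1, which glycosylates collagen. Gtf2a1l had levels of -1.20, -0.62 and -0.42 in DN cells and was not well above background on any thymocyte array by the probe used (limma adjusted p = 0.0167), so the size of that difference was not measured. Its other probe differed by -0.95. Gm4827, Mybpc3 and Cldn34c1 rose by 5.64, 4.61 and 4.32, each read by 1 probe. Colgalt1 rose by 2.27 with the probe used and differed by 0.30 with the other.

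On the lower side were Fam89a, Ggt1, Cpne8 and Cdr2l. Fam89a had levels of -8.72, -5.76 and -6.76 in DN cells and 0.92, 0.95 and 1.90 in thymocytes, a fall of 8.34 ± 1.19 (limma adjusted p = 0.00839), with 1 of the 3 DN arrays well above background. Ggt1, a glutathione-degrading enzyme of the cell surface, fell by 8.10 ± 1.40 (limma adjusted p = 0.0202), with its second probe at -8.37. Cpne8, a calcium-dependent lipid-binding protein, was not well above background on any DN array and was at least 38.3-fold lower (limma adjusted p = 0.0281). Cdr2l fell by 7.16 ± 1.14 (limma adjusted p = 0.0138), with DN levels of -3.62, -8.42 and -8.47, 1 of them well above background, against 0.00, 0.17 and 0.80 in thymocytes.

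The same contrast was then set beside that of isotype control mice, by testing whether the difference between DN cells and thymocytes itself changed with anti-DLL4. Of 20169 genes, 8 passed limma's test of that interaction (0.0397%), 5 of them with a group in which no array was well above background, and 1702 did so at an unadjusted p under 0.05 (8.44%). The median interaction over all genes was -0.19, and it depended on the scaling, at 0.14 after quantile normalization, -0.73 with scaling to probes detected on every array, 0.32 when arrays were centred on their medians and -0.99 with normexp background. Calls were few, so the lists are described by their values in both settings. The 75th percentile was 260, 338 and 676 on isotype DN arrays and 524 to 2468 on isotype thymocyte arrays. Only slide 6 held an array of both isotype groups.

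Class II genes had median differences of opposite sign with anti-DLL4 and with the isotype antibody. In isotype control mice 2 of the 12 genes had a difference above 0, and the median was -0.80, whereas in anti-DLL4 mice all 12 were above 0. The interaction was above 0 in all 12 (45.3% of all genes tested), with a median of 2.52, and 9 of the 12 had an unadjusted p under 0.05 though none passed after adjustment. Relative to the median over all genes it was 2.71, and it ran from 1.35 with quantile normalization to 3.55 with normexp background, where 10 of the 12 were above 0. H2-Aa had levels of -1.73, -0.84 and -0.92 in isotype DN cells and 0.88, -0.15, 0.70 and 0.56 in isotype thymocytes. DN cells were thus below thymocytes with the isotype antibody and above them with anti-DLL4, and the interaction was 2.73 ± 0.67 (limma adjusted p = 0.244). The interactions of H2-Ob and H2-DMb2 were 3.70 ± 0.94 (adjusted p = 0.263) and 2.83 ± 0.76 (adjusted p = 0.278). The class II list's mean was 3.78, 4.79 and 3.99 in treated DN cells against 0.14, 0.52 and 0.45 in isotype DN cells, and the B-cell list's mean was 4.50, 4.11 and 4.42 against 0.60, 0.46 and 0.47 on the same arrays. The part of B-cell abundance in the class II interaction was not tested.

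**Figure D4:**
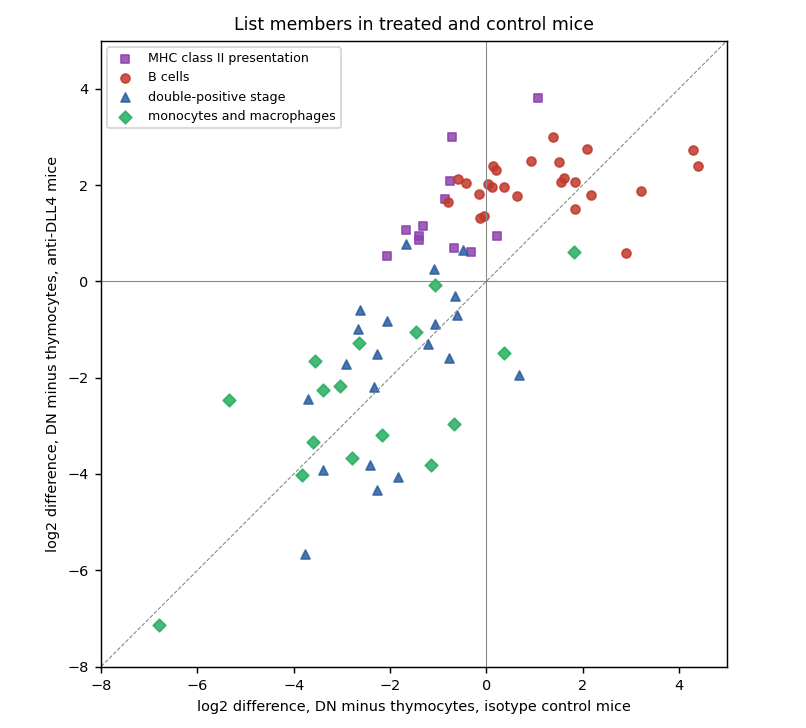
Log2 difference between DN cells and thymocytes in isotype control mice (horizontal axis) and in anti-DLL4 mice (vertical axis) for tested members of 4 gene lists, 1 point a gene, with the diagonal of equal differences dashed. All 12 class II genes lie above the horizontal zero line and 10 lie left of the vertical one, while double-positive and macrophage genes lie mostly below zero on both axes.

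B-cell genes were above 0 in 19 of 25 members in isotype control mice, with a median of 0.93, and in all 25 in anti-DLL4 mice. Genes were filtered on the treated arrays alone, so isotype values of any list can lie below background. Pax5 had levels of -5.96, -7.45 and -3.94 in isotype DN cells and -8.88 to -7.33 in isotype thymocytes. The lowest signals well above background were -5.40 to -5.30 on isotype DN arrays and -7.59 to -5.80 on isotype thymocyte arrays. The size of isotype differences and interactions of such genes was not measured. The interaction was above 0 in 19 of 25, with a median of 1.41 and an unadjusted p under 0.05 in 8. Ebf1 differed by 2.40 in treated mice and by 4.40 in isotype mice, and the interaction did not pass (adjusted p = 0.581).

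Double-positive and macrophage genes had medians below 0 with either antibody. The double-positive median was -1.51 with anti-DLL4 and -2.06 with the isotype antibody, and the macrophage median -2.35 and -2.71. Cd8a differed by -3.77 in isotype mice, and its interaction of -1.88 ± 1.27 did not pass (limma adjusted p = 0.693). For C1qc and Fcgr1 the interactions were -0.19 ± 0.90 and -0.34 ± 1.87, neither past the test. For erythroid genes the isotype median was 0.08 against -3.86 with anti-DLL4, and the interaction of Alas2 was -7.63 ± 1.97 (adjusted p = 0.263). Isotype DN levels of Alas2 spread from -5.10 to 0.99. Mature single-positive genes had a median of -1.98 in isotype mice, against -0.63 in treated mice, with an unadjusted interaction p under 0.05 in 6 of 15. Early T-lineage genes had a median of 0.39 in isotype mice, against -0.62 in treated mice, with such a p in 1 of 17.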

How the data were processed

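Per the labels, RNA from C57BL/6 mouse thymus samples was amplified in 2 rounds and hybridised, 1 sample per 1-colour Cy3 array. Per the file headers, the deposited values are background-subtracted spot intensities that Agilent's Feature Extraction software (9.5.3.1) wrote, with probes placed on mm8, and the submitters' processing notes name version 9.5. Deposited flags (0 or 1) marked detected, saturated and outlier spots, and the deposited mean and background intensities served the normexp alternative. A deposited table of 43225 probes holds a linear ratio that rises with intensity. Its divisor is not given in the sources used here, 70.0% to 70.6% of its log2 values on the 6 arrays lay within 0.05 of the centred values computed here, and its column medians were 0.814, 0.741 and 0.889 in DN cells and 0.638, 0.68 and 1.012 in thymocytes.

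Computed here were log2 intensity minus the 75th percentile of the non-control spots of that array, with outlier spots left out. Probes were named through RefSeq tables (GRCm38.p6, names only) by accession (26671), symbol (6957) or older symbol (2960), and 6838 kept the file's name. A limma 3.58.1 model (R 4.3.3) with 6 group means over 18 arrays gave two-sided p-values, adjusted over all 20169 genes, of which 167 were fitted with 1 array missing. Calls used an adjusted p under 0.05. The arrays used here lay on 6 slides with the rest of the series. Same-numbered DN and thymocyte arrays had correlations of deviations of 0.26, 0.005 and 0.02, and the other pairs -0.25 to 0.19. The first and last same-numbered pairs also shared a slide. These values cannot tell whether samples share animals, so the pairing is unknown and the main fit did not use it. The script was tested on simulated data.

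The 23 lists (354 genes, 14 in more than 1 list, 343 on the array) and the comparison were chosen with earlier results of these data known. Named were the markers Cd8a, Cd8b1, Pax5, H2-Aa and Cd4, the 10 largest rises and falls among called, non-overlapping genes with a RefSeq symbol, the called list members (up to 4) or else the 3 with the smallest p, defining markers, and up to 5 called interactions in each direction. Alternatives were quantile normalization, scaling to detected probes, median centring, normexp background (offset 50), filters, probe averaging, fewer arrays, slide and replicate blocks, array weights, the deposited table and leaving out each array. The number of arrays limits the precision. Results for some genes that the naming rule picks are not reported here.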

Additional observations from a re-analysis of the deposited data

Results flagged for a closer look

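The difference between DN cells and thymocytes changed with the antibody in 8 genes by limma's interaction test, and these are the results singled out. All interactions are the anti-DLL4 difference minus the isotype difference, on the log2 scale. In 5 of the 8 genes at least 1 of the 4 groups had no array well above background, so their interactions are fitted values whose size was not measured and which have no order.

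The 3 genes detected in every group were 2010309G21Rik, LOC207685 and Aifm2. The transcripts 2010309G21Rik (interaction 4.42 ± 0.66 (SE), adjusted p = 0.0276) and LOC207685 (4.31 ± 0.71, adjusted p = 0.0468) were well above background on all arrays of the 4 groups, and their probes lie at chr16:19112015-19112074 and chr16:18978932-18978991 (mm8). Both probes lie near each other on the minus strand, and whether they read related transcripts was not tested. 2010309G21Rik had levels of 6.31, 6.25 and 5.96 in treated DN cells and 4.27, 4.13 and 4.52 in treated thymocytes, with mean levels of 1.40 in isotype DN cells and 3.95 in isotype thymocytes. Aifm2, an oxidoreductase that protects cells from lipid peroxidation, had a fitted interaction of -9.81 ± 1.28 (adjusted p = 0.00978), but only 1 of the 4 isotype thymocyte arrays was well above background. Its levels were -3.48, -2.19 and -1.38 in treated DN cells and 0.80, -0.92 and -0.15 in treated thymocytes, with 1.98, 0.96 and -1.82 in isotype DN cells and values of -8.24 to -5.62 in isotype thymocytes.

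Gpat3, an enzyme of triglyceride synthesis, was not well above background on any isotype DN array (fitted interaction 9.42, adjusted p = 0.00978). Its levels in anti-DLL4 mice were 4.52, 2.35 and 4.70 in DN cells and 2.47, -0.11 and 2.32 in thymocytes. In isotype thymocytes they were -0.66, 0.41, 1.25 and 0.04. Hoxa2, a homeobox factor, was well above background in treated thymocytes alone of the 4 groups, at -2.37, -3.74 and -2.15, and at least 13.1-fold lower in treated DN cells (fitted interaction -7.89, adjusted p = 0.00978). ENSMUST00000099923 was likewise detected in treated thymocytes alone, and was at least 4.39-fold lower in treated DN cells (fitted interaction -5.59, adjusted p = 0.0464). Ripor3 was not well above background on any treated DN array by the probe used (fitted interaction -7.59, adjusted p = 0.0351), and its other probe differed by 0.52 between treated DN cells and thymocytes. AK085406 was not well above background on any treated DN array, where it was at least 6.03-fold lower than in treated thymocytes, nor on 3 of the 4 isotype thymocyte arrays (fitted interaction -9.32, adjusted p = 0.0464). No interaction was called without DN anti-DLL4 replicate 1 or without DN isotype control replicate 2, and 19 genes higher and 59 lower were called without DN isotype control replicate 3.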

How the results depend on the processing

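The 7 genes called higher and 54 called lower became 2 and 38 with normexp background, 7 and 25 when only the 6 arrays compared were fitted, 1 and 9 with the slide as a block, and 0 and 0 with the replicate block (1804 genes at an unadjusted limma p under 0.05). Of the 32 genes called with only the 6 arrays compared, 18 were among the 61 called in the main fit. Leaving out each array gave 1 to 14 higher and 8 to 37 lower. Array weights gave 969 and 715, from a fit that did not converge and gave 1 isotype DN array a weight of 2899. Quantile normalization (9 and 65), the 2 other scalings, both filters, probe averaging and the deposited table kept both counts within 1.5 times. For the interaction, with 3 higher and 5 lower, the counts were 5 and 3 with quantile normalization, 0 and 2 when scaled to detected probes, 7 and 7 when centred, 2 and 3 without a filter, 4 and 13 with the 13 arrays compared, 0 and 0 with the slide block (1655 at an unadjusted p under 0.05), 1 and 7 with the replicate block and 1057 and 1415 with array weights. Leaving out each array gave 0 to 19 higher and 0 to 59 lower. Where counts moved, the cause was not tested, except that the smaller fits hold fewer samples. Atf3 changed sign, at -0.33, with the mean of its probes, one of which runs the other way. The median difference of all genes moved from 0.09 to 0.19 with centring, to -0.02 when scaled to detected probes and to -0.09 with normexp background. Probes not well above background give bounds only.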

Other observations

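Type I interferon genes showed no common direction, with 10 of 20 members above 0, a median of -0.12 and none past the test. Ifit1, an antiviral protein that binds foreign RNA, had levels of -2.91, -1.22 and -1.74 in DN cells and -0.22, -0.55 and 1.03 in thymocytes (difference -2.04 ± 0.74, limma adjusted p = 0.439). Ddx58, the gene of the RNA sensor RIG-I, and Isg15 differed by -1.66 and -0.80 with overlapping values. Immediate-early genes had 13 of 16 members above 0, a median of 0.38 and none past the test. Jun, a subunit of AP-1, had levels of 3.88, 3.68 and 4.33 in DN cells and 1.61, 1.29 and 2.47 in thymocytes, without overlap (difference 2.18 ± 0.60, limma adjusted p = 0.188). Nr4a1, a nuclear receptor induced by receptor signalling, differed by 0.73 with overlapping values.

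Mast-cell and basophil genes were even, with 4 of 8 above 0 and a median of 0.07. Cpa3, a mast-cell carboxypeptidase, had levels of 0.60, 2.05 and 1.80 in DN cells and 1.72, -0.85 and -0.26 in thymocytes. Cma1, a chymase, stood at 2.04 in DN replicate 3 but at -6.65 and -6.04 in the others, against 3.05, 1.33 and 4.07 in thymocytes. Fibroblast and endothelial genes had 3 of 12 above 0 and a median of -0.72. Pdgfrb, a receptor of pericytes and fibroblasts, had levels of -2.80, -1.02 and -0.65 in DN cells and -3.87, -6.47 and -8.07 in thymocytes (difference 4.65 ± 1.00, limma adjusted p = 0.0715). Kdr and Vwf, both endothelial, differed by -4.11 (adjusted p = 0.688) and -2.76 (adjusted p = 0.577).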
